A study of Mus musculus with 2 samples.

Results

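The 8 genes described here encode the enzymes that keep ATP and its breakdown products in balance in a contracting fibre: the creatine kinases Ckm, Ckmt2 and Ckb, the adenylate kinases Ak1 and Ak3, the AMP deaminases Ampd1 and Ampd3, and the adenylosuccinate synthetase Adssl1. They were chosen by name, as all transcript models assigned to these annotated genes in both libraries, and are 8 of the 14900 annotated genes with reads. Together they held 113170 reads in replicate 1 and 67727 in replicate 2, which were 7.50% and 5.77% of each library, in 327 and 289 transcript models. The data are long-read RNA sequencing counts, in which 1 read stands for 1 cDNA copy of an RNA, from the gastrocnemius (the large calf muscle) of adult male mice of the F1 hybrid strain B6CASTF1/J, aged 18 to 20 months. Both libraries belong to a single group, biological replicates 1 and 2 in the labels, each from 2 µg of RNA with ERCC and SIRV spike-ins, and the labels name no treatment or altered gene. This strain descends directly from C57BL/6J and CAST/EiJ parents. The labels give the libraries separate biosamples but the same donor entry, and whether each stands for 1 mouse is not given in the sources used here.

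Muscle spends ATP within milliseconds of contraction and refills it in steps. Creatine kinase moves phosphate from phosphocreatine to ADP, with a cytosolic muscle form bound partly to the myofibril (Ckm), a mitochondrial form that recharges creatine (Ckmt2) and a form typical of brain and smooth muscle (Ckb). Adenylate kinase turns ADP into ATP and AMP, in the cytosol (Ak1) or in the mitochondrial matrix, where Ak3 uses GTP. AMP deaminase then converts AMP to IMP, and adenylosuccinate synthetase starts the way back from IMP to AMP. These steps form the purine nucleotide cycle, whose muscle enzymes are Ampd1 and Adssl1, while Ampd3 is the form known from red blood cells and other tissues.

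Replicate 1 held 1509380 reads and replicate 2 held 1173233, of which spike-ins were 2.71% and 0.590%. Levels are counts per 1000000 reads (CPM), and 3 reads, the floor set for a count of 0, equal 1.99 and 2.56 CPM. The tissue label fitted the 5 skeletal fibre markers Acta1, Myh4, Actn3, Tnnt3 and Mylpf, which summed to 101197 and 87288 CPM. Of these 5, Mylpf was called lower in replicate 2 (11008.5 and 3970.2 CPM) and 4 were not called. Of those not called, Myh4 was higher in replicate 2 (22961 and 29395 CPM), while Acta1, Actn3 and Tnnt3 were lower. The neuronal markers Snap25 and Nefl had 0 reads. The libraries differed in fibre type: all 7 slow and oxidative markers were higher in replicate 2, and their summed level was 458 CPM in replicate 1 and 6583 CPM in replicate 2. Of the markers of other cells, 3 of 4 for smooth muscle and pericytes, 2 of 3 for endothelium and 1 of 3 for Schwann cells were also called higher in replicate 2, none of 3 for fibroblasts, and Cd74 was called lower among 4 for blood and immune cells. Over all genes tested 8.24% were called higher and 2.04% lower. Relative to genes whose transcripts are similar in length, the log2 ratio of Rgs5 went from 1.02 to 0.52 and that of Cd74 from -1.19 to -0.93, both under 2-fold. Intervals below are exact 95% intervals and, like the floors, cover counting error only.

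Ckm (chr7:19404776-19422841, plus strand) had 99344 reads in replicate 1 and 58438 in replicate 2, or 65818 and 49809 CPM, and was the second most read gene of the muscle. It took 98.6% of the creatine kinase reads of replicate 1 (interval 98.5% to 98.6%) and 97.4% of those of replicate 2 (97.2% to 97.5%). Ckmt2 (chr13:91853387-91876885, minus strand) had 1448 and 1562 reads, or 959 and 1331 CPM, and took 1.44% (1.36% to 1.51%) and 2.60% (2.48% to 2.73%). The mitochondrial form was thus the only sizeable partner of Ckm, and its share was larger in the library with higher slow and oxidative markers. Ckb (chr12:111669361-111672338, minus strand) had 9 and 11 reads, 0.00893% and 0.0183% of the creatine kinase reads. Ckmt1, the mitochondrial form of most other tissues, had 0 reads among 100801 and 60011, which allows shares of up to 0.00298% and 0.00500%. In RNA from whole muscle, fewer cells of a type and less RNA per cell cannot be told apart.

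The creatine kinases are close relatives, so a stretch of high identity that aligns without gaps is shown from the 3 coding sequences. Over the aligned coding bases Ckm was 76.5% identical to Ckb and 68.1% identical to Ckmt2, and the longest run shared without a difference was 20 bases for Ckm and Ckb and 17 for Ckm and Ckmt2. The stretch below covers bases 535 to 594 of the Ckm and Ckb coding sequences and 637 to 696 of Ckmt2, from the GENCODE M21 transcripts, and capitals mark bases that differ from Ckm.
Ckm: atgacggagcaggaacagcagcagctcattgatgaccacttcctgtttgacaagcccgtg
Ckb: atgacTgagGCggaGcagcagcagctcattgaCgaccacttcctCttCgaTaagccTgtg
Ckmt2: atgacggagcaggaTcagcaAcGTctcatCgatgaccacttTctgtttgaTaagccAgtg
In this window Ckb differed from Ckm at 9 of 60 bases and Ckmt2 at 8 of 60. Both were thus closer to Ckm here than over the aligned coding bases, where Ckb was closer than Ckmt2. The window therefore does not stand for the whole coding sequences. The reads run over most of the transcript. Sharing of reads among these genes was not tested.

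Ak1 (chr2:32621758-32635058, plus strand), the cytosolic adenylate kinase, had 9324 reads in replicate 1 and 5822 in replicate 2, or 6177 and 4962 CPM. It took 98.0% (97.7% to 98.3%) and 97.9% (97.5% to 98.2%) of the adenylate kinase reads, a share that hardly moved between the libraries. Ak3 (chr19:29020833-29047961, minus strand), the matrix enzyme, had 62 and 46 reads, or 41.1 and 39.2 CPM, which were 0.652% and 0.773% of the family. Ak6, a nuclear member, had 99 and 73 reads. Ak5, Ak7, Ak8 and Ak9 had 0 reads in both libraries.

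Ampd1 (chr3:103074014-103099720, plus strand) had 689 and 382 reads, or 456 and 326 CPM, and Adssl1 (chr12:112620045-112641360, plus strand) had 2288 and 1447 reads, or 1516 and 1233 CPM. Both muscle forms dominated their families. Ampd1 took 97.9% (96.5% to 98.8%) and 93.6% (90.8% to 95.8%) of the AMP deaminase reads, and Adssl1 took 99.4% (99.0% to 99.7%) and 98.8% (98.1% to 99.3%) of the adenylosuccinate synthetase reads. Ampd3 (chr7:110768206-110812405, plus strand) had 6 and 19 reads, or 3.98 and 16.2 CPM. That was 0.852% of the family in replicate 1 (0.313% to 1.85%) and 4.66% in replicate 2 (2.83% to 7.18%), intervals that did not overlap.

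Per kilobase of the main annotated transcript, levels fell from 21085 ± 4128 CPM per kb for Ckm (mean ± SD, n = 2, here and below) through 2700 ± 416 for Ak1 to 774 ± 112 for Adssl1 and 771 ± 177 for Ckmt2. Ampd1 followed with 167 ± 39.5, Ak3 with 14.3 ± 0.470, Ckb with 5.21 ± 1.64 and Ampd3 with 3.02 ± 2.59. The order of Adssl1 and Ckmt2 turned between the libraries: Adssl1 had 853 and Ckmt2 646 CPM per kb in replicate 1, against 694 and 896 in replicate 2. Ckb and Ampd3 did not differ beyond their spread either, while the other neighbours in this order did not overlap. As 1 read stands for 1 cDNA copy, counts need not grow with transcript length, and these values depend on the lengths used. By mean CPM, Ampd3 at 10.1 lay above Ckb at 7.67. The Ckm value per kb also depends on which transcript end is used. Of the reads in unannotated Ckm models, 89.1% in replicate 1 and 99.3% in replicate 2 were in models that end at position 19421584. A model has 1 end for all its reads, and where single reads end was not examined. All unannotated models together held only 5866 of the 99344 Ckm reads in replicate 1 and 1900 of the 58438 in replicate 2. The position is 1257 bases short of the annotated end of Ckm-203. With that end set for all Ckm reads, the Ckm level was 38932 ± 7623 CPM per kb.

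**Figure D1:**
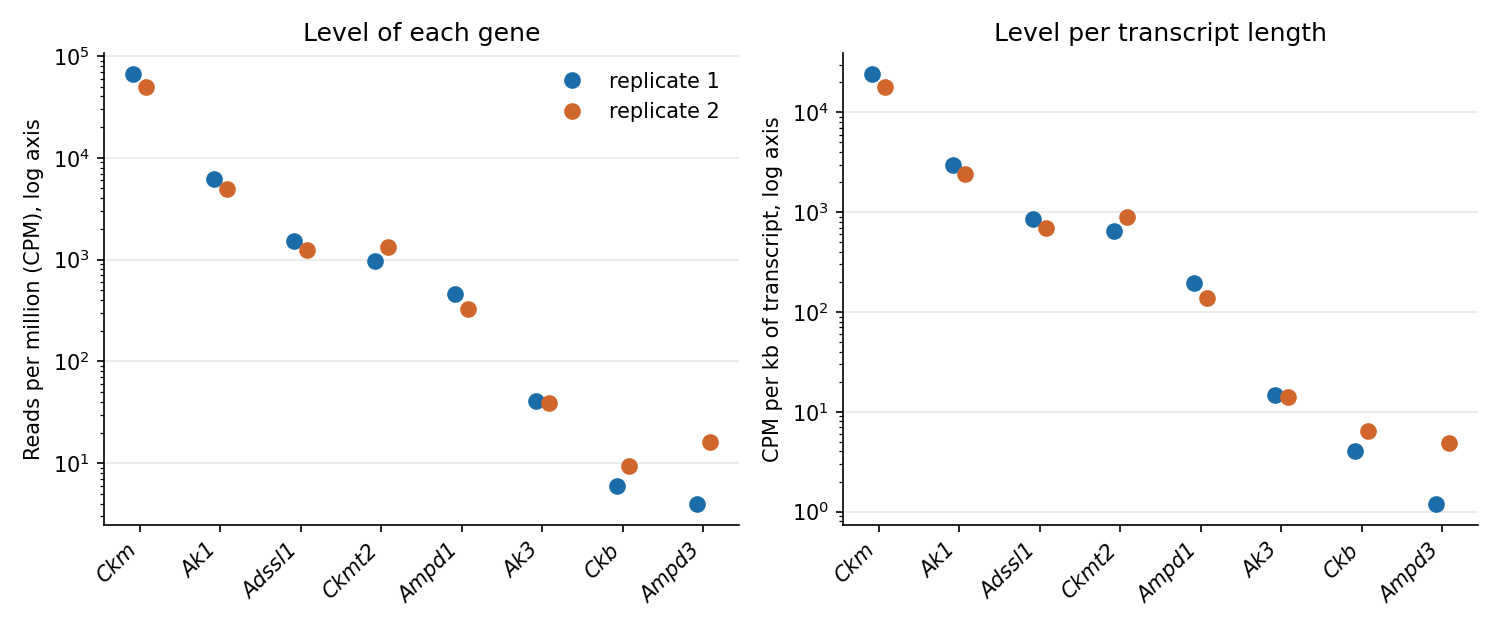
Level of each gene in replicate 1 (blue) and replicate 2 (orange), in CPM on the left and in CPM per kb of the main annotated transcript on the right, both on log axes, with genes ordered by the mean on the right. The points span from 65818 CPM for Ckm down to 3.98 CPM for Ampd3, and Ckmt2, Ckb and Ampd3 are the genes with the orange point above the blue one.

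Across the 9032 annotated genes that had 10 or more reads in all, Fisher's exact test (two-sided, Benjamini-Hochberg adjusted) set each gene's share of reads in replicate 2 against that in replicate 1. This compares 2 libraries and not conditions, and it has no replicate check. A call needed an adjusted p below 0.05 and a 2-fold difference in log2(CPM + 1), given as replicate 2 minus replicate 1, a scale that understates differences of low genes. Among all genes tested 8.24% were called higher in replicate 2 and 2.04% lower, with a median log2 ratio of 0.19. That balance depends on the scaling, since 80.2% of the calls were higher on total reads, 54.3% with TMM factors and 53.5% with DESeq2 size factors. Of the 8 genes described here, 1 was called higher, 0 were called lower, and their median log2 ratio was -0.18.

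The gene called was Ampd3, with 6 reads in replicate 1 and 19 in replicate 2. Its rate was 4.07 times as high in replicate 2 (interval 1.56 to 12.5), a log2 ratio of 1.79 with an adjusted p of 0.0125 by Fisher's exact test. The call rests on 25 reads, and with a minimum of 50 reads the gene was not tested. The adjusted p lay between 0.0125 and 0.0352 under the alternatives that tested it. Slow and oxidative markers moved with this result (7 of 7 higher, 458 and 6583 CPM in sum). So did the smooth muscle and endothelial markers named above (197 and 391 CPM, and 25.2 and 73.3 CPM, in sum), and those of Schwann cells (24.5 and 52.0 CPM). Most of the smooth muscle sum was Rgs5 (148 and 303 CPM), while Acta2 had 34.5 and 36.7 CPM. Fibroblast markers summed to 610 and 642 CPM. Blood and immune markers went the other way (203 and 113 CPM in sum), with Hba-a1 at 104 and 64.8 CPM and Hbb-bs at 65.6 and 34.1 CPM. The part of these markers in the Ampd3 difference was not tested.

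At any fold, 14.8% of all genes passed the adjusted p as higher and 6.57% as lower. Among the 8 genes, 2 passed as higher, Ckmt2 and Ampd3, and 4 as lower, Ckm, Ak1, Ampd1 and Adssl1. Ckmt2 was 1.39 times as high in replicate 2 (1.29 to 1.49, log2 ratio 0.47, adjusted p = 1.73e-17 by Fisher's exact test). Ckm, Ak1, Adssl1 and Ampd1 were lower in replicate 2. Ckm was at 0.757 times its replicate 1 rate (0.749 to 0.765, log2 ratio -0.40, with an exact p too small for the software to represent), Ak1 at 0.803 times (0.777 to 0.830, log2 ratio -0.32, exact adjusted p = 5.51e-38) and Adssl1 at 0.814 times (0.761 to 0.869, log2 ratio -0.30, exact adjusted p = 1.80e-08). Ampd1 was at 0.713 times (0.628 to 0.809, log2 ratio -0.49, exact adjusted p = 1.77e-06). The intervals of Ak1, Adssl1 and Ampd1 overlap one another. Ckb and Ak3 did not pass, with ratios of 1.57 (0.592 to 4.29) and 0.955 (0.637 to 1.42), so at this depth a difference of that size was not detectable for them.

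The sign of the log2 ratio of these 6 genes held under each scaling tried. After TMM or DESeq2 scaling, centring on genes of like length (not possible for Ampd1), or removal of spike-ins from the total, the log2 ratio of Ckm lay between -0.61 and -0.40, that of Ak1 between -0.52 and -0.32, that of Adssl1 between -0.50 and -0.20, and that of Ampd1 between -0.69 and -0.49. Ckmt2 stayed between 0.27 and 0.54 and Ampd3 between 1.45 and 1.79. With reads of annotated transcripts only, the ratios of Ckm, Ak1 and Adssl1 were smaller, at -0.24, -0.18 and -0.17. The slow and oxidative markers moved with Ckmt2 (458 and 6583 CPM in sum), and their part in its difference was not tested.

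**Figure D2:**
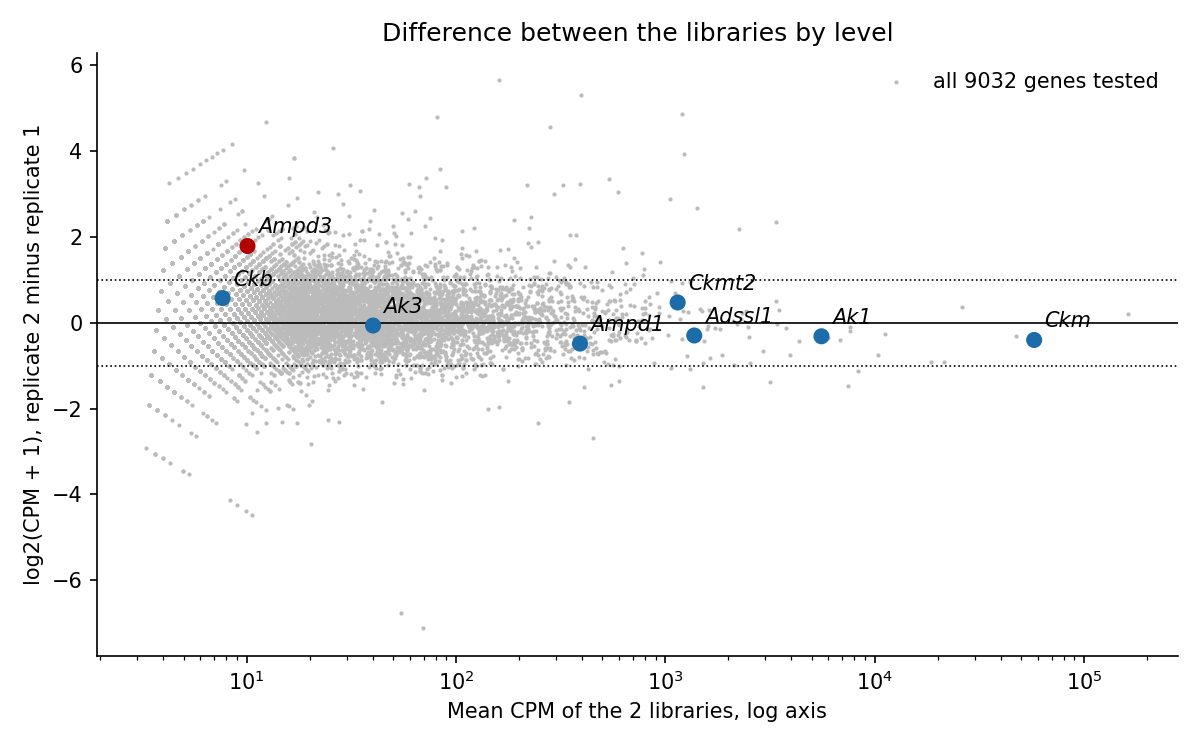
Difference between the libraries, as log2(CPM + 1) of replicate 2 minus replicate 1, against the mean CPM on a log axis, for all 9032 genes tested (grey) and the 8 genes described (large points, red where called). The dotted lines mark a 2-fold difference. Ampd3 lies above the upper line at 1.79, and the 5 most read of the 8 genes lie between -0.49 and 0.47.

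TALON, the program that named the models, sorts the reads of a gene by their introns. A read can match an annotated transcript in full, match part of it (an incomplete splice match), join annotated splice sites in a way no annotated transcript does, or use an unannotated splice site. Reads of annotated transcripts made up 94.1% and 96.7% of the Ckm reads (replicates 1 and 2), 95.9% and 94.8% for Ckmt2, 94.5% and 95.0% for Adssl1, 90.1% and 91.0% for Ak1, and 88.7% and 89.1% for Ak3. Over all annotated genes that class held 64.2% and 60.8% of reads. Ampd1 stood at the opposite end, with 0 of 689 and 0 of 382 reads in any annotated transcript, which allows shares of up to 0.435% and 0.785%.

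**Figure D3:**
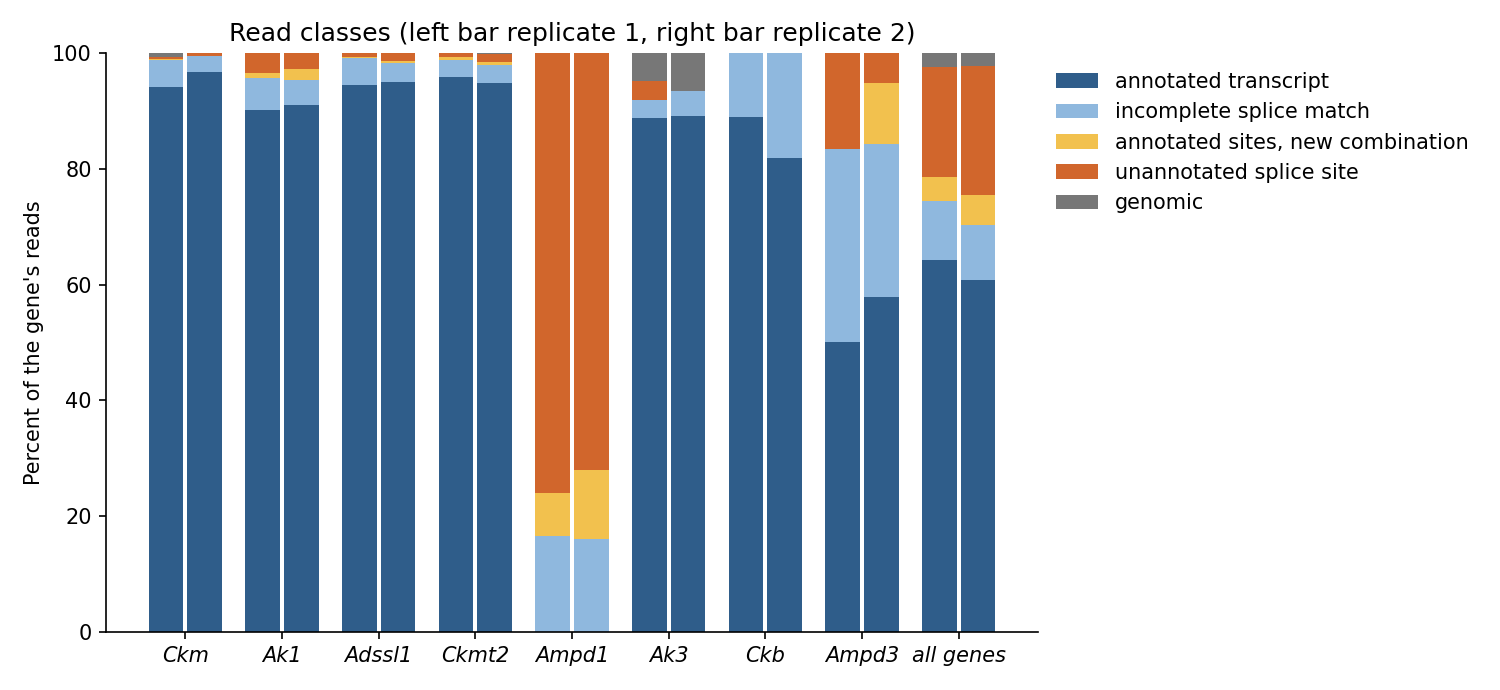
Percent of each gene's reads in 5 classes, with replicate 1 as the left bar and replicate 2 as the right bar of each pair, and all annotated genes at the far right. Ampd1 has no bar segment for annotated transcripts, while Ckm, Ckmt2 and Adssl1 have 94.1% or more there.

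Ampd1-201, the full-length annotated transcript, has 16 exons, and its exon 2 (chr3:103075407-103075418) is only 12 bases long. The coding start is shown because this is where the reads leave the annotation. The first line is the coding part of exon 1, exon 2 in capitals and the start of exon 3, and the second is the same junction in Ampd1-203, a short annotated transcript without exon 2, both from the GENCODE M21 transcripts.
Ampd1-201: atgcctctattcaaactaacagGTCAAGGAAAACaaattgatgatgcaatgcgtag
Ampd1-203: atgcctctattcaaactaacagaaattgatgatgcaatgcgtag
Exon 1 contributes 22 coding bases. Of the reads that reach from exon 1 past exon 2, 567 in replicate 1 and 318 in replicate 2, 0 contained exon 2 with its annotated ends, which allows up to 0.529% and 0.943%.

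All but 8 of those reads in replicate 1 and 5 in replicate 2 left exon 1 at 1 of 3 positions and joined the annotated start of exon 3. The most frequent kind ran 6 bases past the annotated end of exon 1 before joining exon 3, in 508 of 567 reads of replicate 1 (89.6%, interval 86.8% to 92.0%) and 269 of 318 of replicate 2 (84.6%, 80.1% to 88.4%). A second kind joined the annotated end of exon 1 directly to exon 3, the junction of Ampd1-203, in 43 reads (7.58%, 5.54% to 10.1%) and 42 reads (13.2%, 9.69% to 17.4%). The third kind ran 4 bases past, in 8 reads (1.41%) and 2 reads (0.629%). The order of the 3 kinds was the same in both libraries. Exon 2 with its annotated ends was listed only as the first exon of incomplete models, in 1 read of replicate 1 and 5 reads of replicate 2. In 1 other read of replicate 1, exon 1 was joined to the annotated start of exon 2. The most read Ampd1 model, with the 6 added bases and 14 introns, held 70.2% (66.7% to 73.6%) and 67.3% (62.3% to 72.0%) of the gene's reads, with an adjusted p of 0.876 by Fisher's exact test for a difference between the libraries.

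The same measurement over all genes puts this exon in context. Among internal exons of protein-coding transcripts that overlap no other annotated exon, with at least 20 spanning reads in each library, 58 were 15 bases or shorter, and 56 of these were contained in under 5% of spanning reads in both libraries. The median inclusion was 0% in both libraries. No annotated transcript skips 7 of these 58 exons, and all 7 were under 5% as well. For 17 of the 58, over 50% of spanning reads in both libraries skipped the exon through a splice site that is not annotated, as the reads of Ampd1 did. From 16 to 30 bases, 214 exons had medians of 97.0% and 95.3%, and 1925 exons of 31 to 60 bases had medians of 100%. The deposited models thus rarely held exons as short as Ampd1 exon 2, though most of the 58 are also skipped by an annotated transcript. A Dnm2 exon of 12 bases was contained in 20.7% and 20.8% of spanning reads. An Arhgef10l exon of 15 bases was contained in 91.9% and 87.5%. Whether the Ampd1 reads carry its 12 bases was not tested, since the read sequences and the genome sequence were not analysed here.

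**Figure D4:**
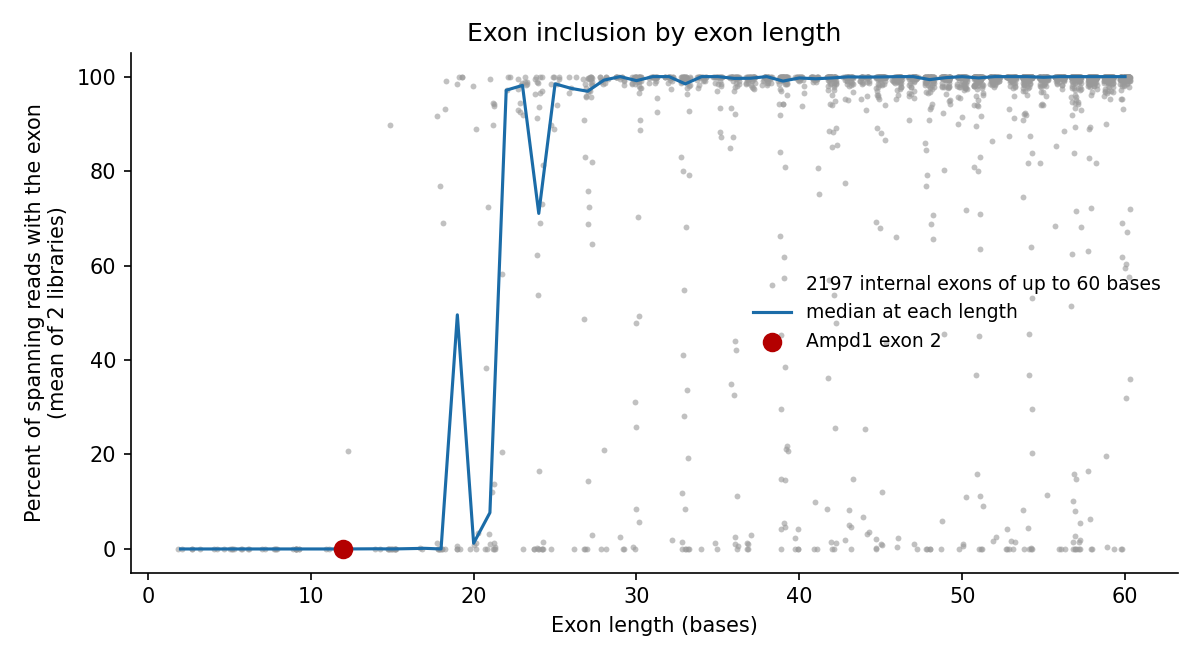
Percent of spanning reads that contain an exon (mean of the 2 libraries) against exon length in bases, for 2197 internal exons of up to 60 bases with at least 20 spanning reads in each library (grey points, shifted slightly sideways), with the median at each length as a line. Ampd1 exon 2 (red) lies at 12 bases and 0%, among the 58 exons of 15 bases or shorter, of which 56 were under 5% in both libraries.

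The remaining exons of these genes were nearly constant. Of 66 internal exons of the main annotated transcripts, 47 had at least 20 spanning reads in each library, and 46 of the 47 were contained in more than 95% of spanning reads in both libraries. The exception was Ampd1 exon 2. Such inclusion was usual over all genes, in the exon set compared by length above. There, 1687 of 1925 exons of 31 to 60 bases were over 90% in both libraries. So were 9383 of 9909 exons of 61 to 120 bases and 9001 of 9388 of 121 to 300 bases. For Ckm the 6 internal exons were included in 99.8% to 99.9% of reads in both libraries, and for the 3 of Ak3 inclusion was 100% on 57 or 58 reads in replicate 1 and 42 in replicate 2. Ckm-201, an annotated transcript that skips exon 2, which carries the start codon of the main form, had 10 reads in replicate 1 and 6 in replicate 2. Among the remaining exons the lowest value in replicate 1 was 98.4%, at Ampd1 exon 3, which had 99.1% in replicate 2. The lowest in replicate 2 was that of Ak1, with 98.7% and 98.3% at its least included exon. Ckb and Ampd3 had too few reads for this count.

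Ak1 has alternative starts in the annotation. Ak1-202 begins its coding sequence in exon 2, while Ak1-201 starts further downstream in a first exon of its own, which adds a longer coding start. The coding starts are shown with the bases not shared in capitals.
Ak1-202: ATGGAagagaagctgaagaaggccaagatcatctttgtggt
Ak1-201: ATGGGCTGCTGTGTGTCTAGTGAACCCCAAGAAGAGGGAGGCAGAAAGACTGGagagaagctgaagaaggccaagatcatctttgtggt
The capitals cover 5 bases of Ak1-202 and 53 of Ak1-201. Ak1-202 held 8399 and 5297 reads, which were 90.1% (89.5% to 90.7%) and 91.0% (90.2% to 91.7%) of the gene. Ak1-201 had 1 read in replicate 1 and 0 in replicate 2, and the first intron of Ak1-203 was found in 0 reads of either library. An unannotated first exon joined exon 2 through the intron chr2:32627081-32628450 in 86 and 30 reads (0.922% and 0.515%).

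Ckm, Ckmt2, Adssl1 and Ak3 each had 1 transcript with most of their reads. Ckm-203 held 93468 and 56532 reads, or 94.1% (93.9% to 94.2%) and 96.7% (96.6% to 96.9%), a difference of 2.65 percentage points with an adjusted p of 1.07e-125 by Fisher's exact test. Ckm was the only 1 of the 6 genes tested whose leading share was called, against 2.65% of the 4535 genes tested. It also had the most reads: the leading Ampd1 model differed by -2.97 points without a call. The Ckm-203 share and the Ckm share of incomplete splice matches below divide the same reads, so they are not separate results. With annotated transcripts only, 3 of the 6 genes could be tested and 0 were called. Ckmt2-201 held 95.9% and 94.8%, Adssl1-201 held 94.4% and 95.0%, and Ak3-201 held 88.7% and 89.1%, with adjusted p of 0.761, 0.935 and 1 by the same exact test. Over all 4535 genes the leading transcript had a median of 75.0% and 77.6% of reads. Ampd3 was split over several starts: Ampd3-208 had 2 and 5 reads, Ampd3-206 had 1 and 3, and Ampd3-201 had 0 and 3. Ckb-201 had 7 of the 9 Ckb reads and 9 of the 11.

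Incomplete splice matches of Ckm were fewer in replicate 2, at 4729 reads (4.76%, 4.63% to 4.89%) in replicate 1 and 1550 (2.65%, 2.52% to 2.79%) in replicate 2 (adjusted p = 6.21e-97 by Fisher's exact test). Those of Ak1 were also fewer, at 525 reads (5.63%) and 250 reads (4.29%; exact adjusted p = 0.00861). Of all 4153 genes tested, 3.42% had a lower and 1.28% a higher share in replicate 2, and of the 6 genes tested here 2 were lower and 0 higher. Ampd1 had the largest share of the well-read genes, at 114 of 689 reads (16.5%) and 61 of 382, while Adssl1 had 4.55% and 3.18% and Ckmt2 had 2.90% and 3.07%. The median over all genes tested was 5.97% and 4.82%.

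In Ckm, Ckmt2, Ak1, Adssl1 and Ampd1 the first intron was found in fewer reads than the last, while in Ak3 both were found in 57 of 62 and 42 of 46 reads. The first intron was found in 94.3% and 97.0% of Ckm reads, 97.0% and 97.1% of Ckmt2 reads, 91.5% and 93.3% of Ak1 reads, and 95.4% and 96.5% of Adssl1 reads, and the last intron in 99.3% and 99.7% of Ckm reads. For Ampd1 intron 3 was found in 83.7% and 86.1% of reads and intron 15, the last, in 99.3% and 99.5%. In Ckm, a model that held only the last intron accounted for 2763 reads (2.78%) in replicate 1 and 560 (0.958%) in replicate 2, more than any other incomplete model of the gene. A single-exon model of Ckm, chr7:19421157-19424040, had 630 reads in replicate 1. It starts 51 bases before the last exon and runs 1199 bases past the annotated end of the gene. It had 0 reads in replicate 2, which allows up to 0.00513% of 58438 Ckm reads.

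**Figure D5:**
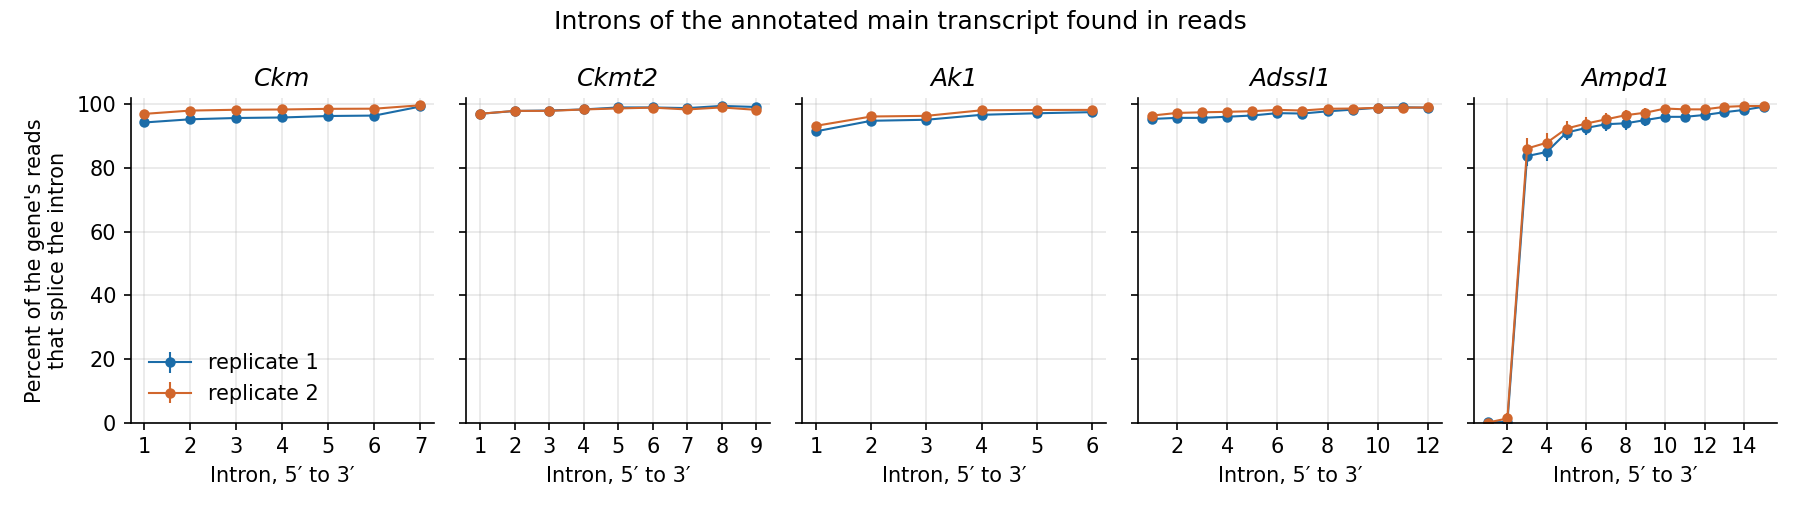
Percent of each gene's reads that splice each intron of the main annotated transcript, counted from the 5′ end, in replicate 1 (blue) and replicate 2 (orange), with exact 95% intervals. Coverage falls by a few points towards the 5′ end in Ckm, Ckmt2, Ak1 and Adssl1, while in Ampd1 introns 1 and 2, which flank the 12-base exon, are at 1.31% or less.

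Unannotated spliced models found in both libraries by the same intron chain, with at least 5 reads over both, numbered 93 over these genes: 39 for Ckm, 22 for Ak1, 16 for Ampd1, 9 for Adssl1 and 7 for Ckmt2. Of these 42 were incomplete splice matches. Another 12, in Ckm and Ak1, were filed as a new combination of annotated sites in 1 library and as an unannotated site in the other, so those 2 classes cannot be compared between the libraries for Ckm and Ak1. Many new sites lay close to annotated ones: all new sites were within 10 bases of an annotated site in 43.7% and 47.7% of the unannotated spliced Ckm reads outside incomplete matches, in 51.5% and 59.5% for Ak1 and in 88.3% and 82.6% for Ampd1.

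Ckmt2 held a small change of its last exon in both libraries. In 5 reads of replicate 1 (0.345%) and 14 of replicate 2 (0.896%) the last exon began 15 bases downstream of its annotated start, within the coding sequence. The junction is shown with those 15 bases (chr13:91853634-91853648, minus strand) in capitals, from the GENCODE M21 transcript.
Ckmt2-201: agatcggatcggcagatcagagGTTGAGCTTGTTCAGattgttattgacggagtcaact
In Ckm, a model whose exon 2 began upstream of its annotated start, with the first intron chr7:19411147-19413928, had 118 reads (0.119%) and 76 reads (0.130%). Both were minor beside the main transcripts.

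The enzymes and carriers around these genes were read from a list of 36 other genes of phosphagen and purine nucleotide metabolism, of which 23 had enough reads to test. In replicate 2, 0 were called higher, 2 lower and 21 neither, beside the 8.24% and 2.04% of all genes, with a median log2 ratio of 0.02. Among those called lower was Gamt, which makes creatine from guanidinoacetate, with 45 and 14 reads (log2 ratio -1.25, exact adjusted p = 0.0148). Relative to genes whose transcripts are similar in length, the Gamt ratio was -0.89, under 2-fold. The call rests on fewer than 60 reads.

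The most read gene of the list was Slc25a4, the ADP/ATP carrier of heart and muscle mitochondria, with 11972 and 8620 reads (7932 and 7347 CPM), and Slc25a5, the carrier of dividing cells, had 222 and 198. Of the enzymes, Gmpr, which turns GMP into IMP, had 683 and 433 reads, Nme2, a nucleoside diphosphate kinase, had 659 and 375, and Adsl, which completes the return from IMP to AMP after Adssl1, had 270 and 185. Ak6 had 99 and 73 reads, Adk, which phosphorylates adenosine, had 88 and 82, and Nt5c3, a 5′-nucleotidase, had 63 and 44. Slc6a8, the creatine transporter, had 35 and 29 reads, and Gatm, which makes guanidinoacetate, had 8 and 1. Ampd2, the third AMP deaminase, had 9 and 7 reads, and Adss, the synthetase of other tissues, had 14 and 17.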

How the data were processed

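Long-read counts came from 2 libraries of mouse gastrocnemius. The authors deposited raw counts, reads for each transcript model of a library, listing no model of 0 reads. The deposited README files name a filtered alignment to mm10 with GENCODE M21 as the origin of the counts, and the deposited annotations name TALON as the source of the models. No aligner, version or platform is given in the sources used here. Exon coordinates (1-based, mm10) came from the deposited annotations, and sequences from the GENCODE M21 transcripts.

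The 8 genes, the pathway and marker lists and the tests were chosen with earlier results of these data known. All 8 genes are named, with annotated transcripts at 1% or more of a gene's reads, unannotated models shared by both libraries with at least 5 reads, and of the pathway list the genes called and the 8 most read. Slc6a8, Gatm, Ampd2, Adss and the low transcripts named were added after their values were seen. The single-gene result of 1 member of the pathway list is not reported here, while the list counts include it. The comparison of exons by length and the Ckm length to the most used end of its unannotated models were chosen after seeing the data.

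For each annotated gene, counts of all read classes were added and divided by the library total (CPM). Fisher's exact tests (scipy 1.17.1, pandas 2.3.3, Python 3.11.15) were adjusted by Benjamini-Hochberg over all genes with 10 reads or more in all. For shares the minimum was 20 reads in each library. The test of gene levels was tried on simulated reads with counting error and known changes only, which leaves out other variation between libraries. Models were matched between libraries by intron chain. Scaling alternatives used edgeR 4.0.16 (TMM) and DESeq2 1.42.0 factors in R 4.3.3, and coding sequences were aligned with Biopython. The p-values set the difference between these libraries against counting error only, and do not measure the spread from library to library. Such a difference may be technical. Reads were not corrected for copies of 1 molecule.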

Additional observations from a re-analysis of the deposited data

Results flagged for a closer look

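Reads on the strand opposite to these genes lie outside the counts above and exceeded the floor of 3 reads in both libraries at 4 genes. Opposite Ckm, the annotated non-coding gene A930016O22Rik had 11 reads in replicate 1 and 29 in replicate 2. Opposite Ak1, unannotated antisense models had 33 and 18 reads, and opposite Ampd1 they had 4 and 14. Across the exons of Ak3, the neighbouring gene Cdc37l1 on the other strand had 68 and 34 reads.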

How the results depend on the processing

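The log2 ratios of the 6 genes past the adjusted p at any fold kept their sign under every alternative run. Read and fold minimums leave a ratio unchanged, and a larger pseudocount cannot turn its sign. Only the alternatives of scaling and of read class could have turned it. The log2 ratio of Ak3, which did not pass, was 0.06 with annotated transcripts only. The number of genes called higher in replicate 2 was 1 under every alternative except 0 with a minimum of 50 reads, which leaves Ampd3 untested, and 2 with no fold minimum. The number called lower was 0 except 4 with no fold minimum. In the order of levels, 2 genes changed place without replicate 1, 2 without replicate 2, 2 per kilobase, and 3 with annotated transcripts only. Per kilobase with Ckm cut at the most used end of its unannotated models, 2 changed place. With annotated transcripts only, the Ampd1 share of AMP deaminase reads was 0%, since none of its reads is in that class, the Adssl1 share of its family was 99.5%, the number of genes with a called leading transcript was 0 of the 3 that could be tested, inclusion of Ckm exon 2 was 99.99% and that of Ak1 exon 2 was 100%. No paired analysis was possible because there is 1 group.

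Over all genes, calls in replicate 2 were 744 higher and 184 lower. They were 446 and 376 with TMM factors, 442 and 384 with DESeq2 size factors, 344 and 131 after centring on length, 430 and 128 with a minimum of 50 reads, 790 and 101 with annotated transcripts only, 1339 and 593 with no fold minimum, and 1150 and 438 at 1.5-fold. Depth limits Ckb, Ampd3 and Gamt, each on fewer than 60 reads.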
